A study of Mus musculus with 4 samples.

Results

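Nuclear receptors are transcription factors of 1 protein family, many of which are switched on or off by a small fat-soluble ligand. The 43 receptor genes described here were chosen by name, and their members are all peaks of the authors' deposited table whose assigned gene symbol is one of these 43 names. The rule used no measured value. It found 318 peaks assigned to 41 of the 43 genes, among 80881 peaks assigned to 18759 genes in all. No peak carried the names Rora or Nr1i3.

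Open chromatin was profiled by ATAC-seq, which reads out where a transposase can cut and tag DNA, in KPC cells, a Cas9-carrying lung adenocarcinoma line that was established from a KP mouse lung tumour. Both groups carried SpCas9 from a lentivirus selected with puromycin, and in both CRISPR activation (CRISPRa) was delivered with the vector lenti-SAM-Hygro. In the mA2 dRNA group the guide was directed at Malat1, the gene of an abundant nuclear long noncoding RNA, and in the Con dRNA group at luciferase, which is not a mouse gene. Each group had 2 libraries, which the series describes as biological replicates, and all 4 libraries came from 1 cell line, so that the p-values measure the spread between 2 cell samples of that line and not between tumours or animals. All groups carried Cas9 and an activation vector, and no group without them was analysed here.

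The values are the authors' normalized reads per peak, averaged by them within each group and given here as mA2 dRNA against Con dRNA. A difference is log2 of the mA2 dRNA mean minus log2 of the Con dRNA mean. A peak is called where the authors' deposited table gives it an adjusted p under 0.05, and its error (±) is the standard error implied by the deposited p, since 4 columns of single libraries matched no label and were not used. Of 13 peaks assigned to Malat1, 12 had the higher mean in mA2 dRNA, as had 60.8% of all peaks. The median difference over chromosome 19, where Malat1 lies, was 0.20. The remaining Malat1 peak, 0.812 kb from the start site, had 758 against 789 reads. Of the 13, 1 was called, 9.41 kb from the start site, with 991 against 684 reads (adjusted p = 0.0279 in the authors' deposited table). The Malat1 peak over the start site had 322 against 290.4 reads and was not called, and accessibility does not measure the RNA. Peaks within 3 kb of the start site were found for 6 of 8 epithelial markers (up to 572 reads, Krt8), without Epcam and Cldn4, and for 6 of 8 lung epithelial markers (up to 301 reads, Foxa2), without Sftpa1 and Napsa. They were also found for 2 of 8 leukocyte markers (Cd68 and Laptm5, not Ptprc), 2 of 6 endothelial markers (not Pecam1 or Cdh5) and 4 of 6 fibroblast markers (up to 535 reads, Col1a1). Summed over these peaks, the marker reads of mA2 dRNA against Con dRNA were 1351 against 1303 for epithelium, 534 against 470 for lung epithelium, 390.3 against 376 for leukocytes, 96.0 against 75.2 for endothelium and 869 against 790.3 for fibroblasts. Over all peaks assigned to the markers, 3 of 58 were called higher for epithelium, 2 of 67 for lung epithelium, 1 of 21 for leukocytes (and 1 lower), 5 of 29 for endothelium and 1 of 51 for fibroblasts. Among all 80881 peaks, 2.23% were called higher and 0.507% lower. The 5 endothelial calls were all assigned to Cdh5, at 24.4 to 148 kb from its start, the strongest with 636 against 105 reads. Their part in the results below was not tested, and fewer cells with an open site and less opening per cell cannot be told apart in bulk libraries.

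Most nuclear receptors have a zinc-finger domain that binds short DNA elements and a second domain that, in many members, holds a ligand such as a steroid, thyroid hormone, retinoic acid, vitamin D, a fatty acid or an oxysterol. Ligand exchanges corepressors for coactivators on the receptor, and many receptors bind DNA as pairs with a retinoid X receptor, while orphan members such as the NR4A proteins act without a known classical ligand. In the lung, the glucocorticoid receptor is known for its role in epithelial maturation and as a drug target, and retinoic acid receptors for alveolar development.

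The promoters of the 3 PPAR genes and the 3 NR4A genes are shown, because Ppara held the only called start-site peak among the receptors and because all peaks of Nr4a1 and Nr4a2 had the higher mean in mA2 dRNA and all peaks of Nr4a3 the lower, although at the Nr4a2 promoter that direction turned under 3 of 4 centrings, in which a median (of all peaks, of peaks of like signal, of the chromosome or of the 10 Mb window) was subtracted from each difference. Each run is the 250 bases before a RefSeq transcription start on GRCm38.p6, 5′ to 3′ on the gene's strand, and capitals mark the bases that lie inside a peak of the deposited table. For Ppara the peak covered the 50 bases farthest from this start, at chr15:85735526-85735775 (plus strand).
Ppara: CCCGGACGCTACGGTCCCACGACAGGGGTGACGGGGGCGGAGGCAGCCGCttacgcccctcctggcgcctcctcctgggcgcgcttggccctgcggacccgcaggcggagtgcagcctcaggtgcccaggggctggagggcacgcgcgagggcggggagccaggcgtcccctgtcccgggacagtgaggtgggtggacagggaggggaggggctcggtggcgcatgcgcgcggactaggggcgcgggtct
Ppard, at chr17:28232504-28232753 (plus strand), had 249 of the 250 bases inside its start-site peak.
Ppard: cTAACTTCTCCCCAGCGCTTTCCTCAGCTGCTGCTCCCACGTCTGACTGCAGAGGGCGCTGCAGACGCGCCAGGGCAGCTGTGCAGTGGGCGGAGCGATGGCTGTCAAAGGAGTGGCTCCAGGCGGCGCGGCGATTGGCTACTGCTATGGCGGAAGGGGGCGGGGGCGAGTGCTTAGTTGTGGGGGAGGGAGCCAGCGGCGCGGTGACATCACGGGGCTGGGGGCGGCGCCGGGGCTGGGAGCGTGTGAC
Pparg, at chr6:115360894-115361143 (plus strand), had 220.
Pparg: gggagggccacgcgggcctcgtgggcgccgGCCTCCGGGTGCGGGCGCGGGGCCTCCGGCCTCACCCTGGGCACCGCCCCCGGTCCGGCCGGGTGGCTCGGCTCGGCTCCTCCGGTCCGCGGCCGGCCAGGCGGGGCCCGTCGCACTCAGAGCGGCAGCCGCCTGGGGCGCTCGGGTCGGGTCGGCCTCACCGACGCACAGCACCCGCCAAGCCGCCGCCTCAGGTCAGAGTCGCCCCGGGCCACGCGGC
For Nr4a1 the RefSeq window was at chr15:101266596-101266845 (plus strand), with 225 bases inside the peak that the deposited table places 12.4 kb from the start it used.
Nr4a1: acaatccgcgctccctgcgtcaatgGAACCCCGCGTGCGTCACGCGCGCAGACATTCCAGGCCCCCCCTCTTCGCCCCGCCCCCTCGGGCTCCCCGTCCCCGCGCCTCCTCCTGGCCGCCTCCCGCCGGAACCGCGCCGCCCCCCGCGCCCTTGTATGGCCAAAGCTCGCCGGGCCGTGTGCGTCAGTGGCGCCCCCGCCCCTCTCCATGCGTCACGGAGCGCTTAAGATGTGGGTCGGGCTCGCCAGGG
Nr4a2, at chr2:57124004-57124253 (minus strand), had 216 bases inside its peak.
Nr4a2: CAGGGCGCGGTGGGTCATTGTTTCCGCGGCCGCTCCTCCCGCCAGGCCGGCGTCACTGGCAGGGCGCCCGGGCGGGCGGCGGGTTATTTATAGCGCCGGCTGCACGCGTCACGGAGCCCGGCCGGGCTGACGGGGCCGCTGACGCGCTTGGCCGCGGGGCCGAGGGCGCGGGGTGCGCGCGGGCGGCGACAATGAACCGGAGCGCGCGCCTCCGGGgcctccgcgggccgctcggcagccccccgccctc
Nr4a3, at chr4:48045055-48045304 (plus strand), lay inside its peak with all 250 bases.
Nr4a3: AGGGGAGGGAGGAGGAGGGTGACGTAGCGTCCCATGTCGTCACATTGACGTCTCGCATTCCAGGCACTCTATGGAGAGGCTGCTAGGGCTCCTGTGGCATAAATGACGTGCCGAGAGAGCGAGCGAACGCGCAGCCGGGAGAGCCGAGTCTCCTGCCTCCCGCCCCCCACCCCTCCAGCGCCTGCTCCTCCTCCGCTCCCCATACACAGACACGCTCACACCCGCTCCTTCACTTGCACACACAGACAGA

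All 6 windows held the GC box GGGCGG, an element bound by Sp-family factors. Every motif was searched on both strands. It stood at positions -216 and -101 of Ppara, counted back from the start, of which only the first lies in the peak. Ppard held it at -163, -93 and -29, Pparg at -177, Nr4a1 at -174, -114 and -55, Nr4a2 at -181, -177, -70 and -8 (the first 2 overlap), and Nr4a3 at -91. The nuclear receptor core AGGTCA was found in the Pparg window, at -28, and in none of the other 5 windows printed here. Over all receptor genes the RefSeq table held 60 windows of 40 genes, with none for Nr3c1, Nr5a1 and Thra, and 24 windows of 22 genes overlapped a peak. Each window was counted, also where windows of a gene overlap, as a pair of Rara and a pair of Nr1h3 do. GGGCGG was present in 27 of the 60 (45.0%), from 22 of the 40 genes, against 32.7% of all 32851 promoter windows of the same length. AGGTCA was present in 10 of 60 (16.7%) against 14.0%, and the steroid receptor core AGAACA in 4 (6.67%) against 16.1%. The E-box CACGTG was in 5 (8.33%) against 6.02%, the AP-1 site TGANTCA in 3 (5.0%) against 6.75%, the cyclic AMP response element TGACGTCA in 1 (1.67%), that of Nr2e1, against 1.55%, and TATAAA in 7 (11.7%) against 12.4%. No receptor window held a direct repeat of AGGTCA with a spacing of 0 to 5 bases, each copy of which also counts as an AGGTCA match, and 26 of all windows (0.0791%) held one. These matches describe letters in the window, not bound sites.

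Accessibility changed at few receptor peaks. Of 318 peaks, 11 were called (3.46%), 9 higher and 2 lower with the Malat1 guide, in 8 genes. Over all peaks, 2.73% were called, 2.23% higher and 0.507% lower, so that the receptors' share of peaks lay near that of the table. Counted by gene, 8 of 41 receptor genes (19.5%) had at least 1 called peak against 8.58% of all genes, with a mean of 7.76 peaks per receptor gene against 4.31 over all genes. At an unadjusted p under 0.05 there were 48 receptor peaks (15.1%) against 11.7% of all peaks. The median difference of the receptor peaks was 0.04 against 0.09 for all peaks, and 170 of them (53.5%) had the higher mean with mA2 dRNA against 60.8% of all peaks. When the median of all peaks was subtracted from every difference and p was recomputed, 7 receptor peaks were called, 4 higher and 3 lower. That was 2.2% of receptor peaks against 2.37% of all peaks. Over all peaks there were then 1314 higher and 600 lower in place of 1801 and 410.

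**Figure D1:**
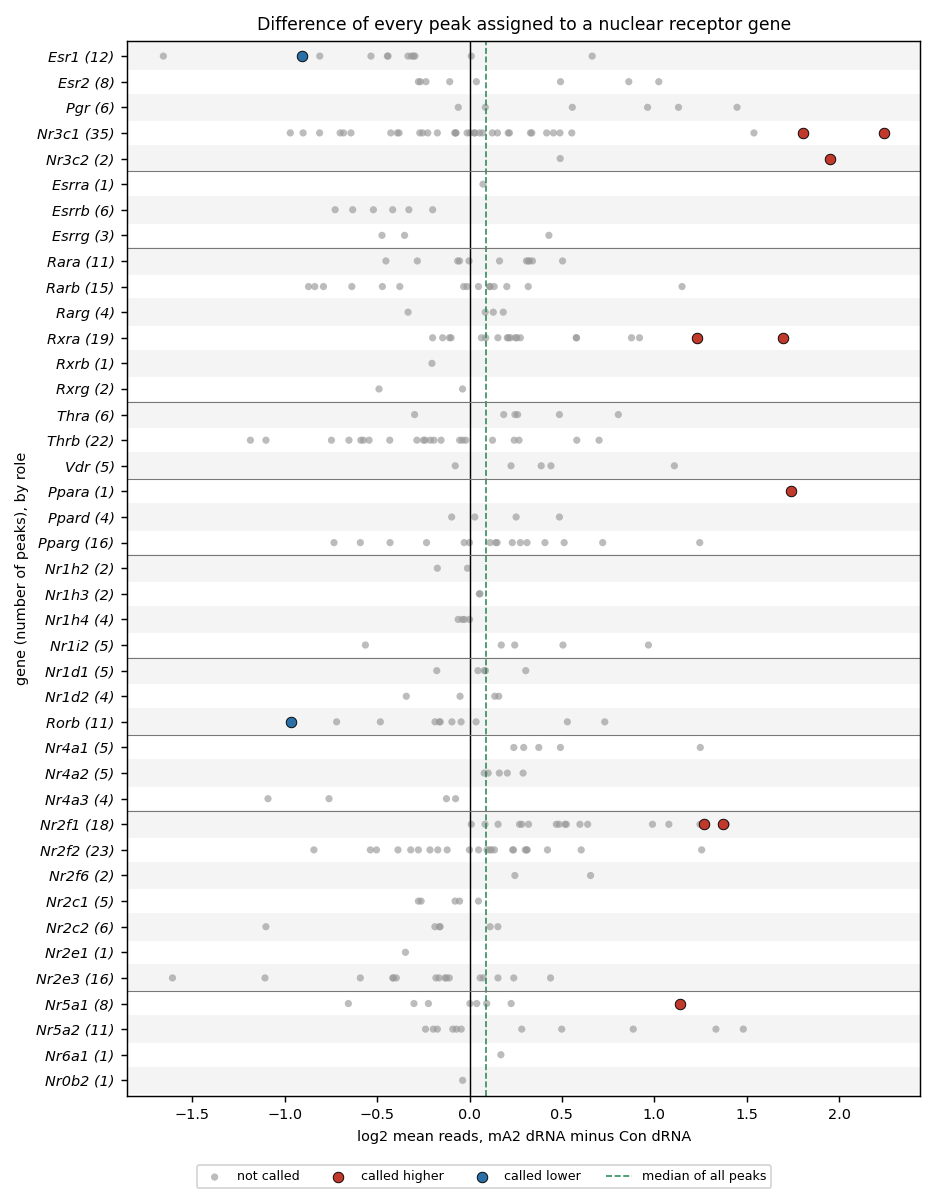
Difference of each of the 318 peaks (log2 mA2 dRNA mean minus log2 Con dRNA mean, x axis) by assigned gene (y axis, number of peaks in brackets), with rules between role groups, coloured points for called peaks and a dashed line at the median of all peaks. The 11 called peaks sit in 8 genes, 9 to the right of 0 and 2 to the left.

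Receptor peaks lay far from the starts of the genes they were assigned to. The median distance was 59.7 kb against 19.3 kb over all peaks, 171 of 318 (53.8%) lay beyond 50 kb against 27.7%, and 43 (13.5%) lay within 3 kb against 22.3%. By annotation 150 were intronic (47.2%), 94 distal intergenic (29.6%), 34 in promoters, 24 in exons, 12 in 5′ UTRs and 4 in 3′ UTRs. By RefSeq gene bounds, 138 lay inside the receptor gene itself, 95 inside another gene only and 85 in no gene. Of the called peaks 2 lay in the receptor gene (Ppara and Rxra), 3 in another gene and 6 in none, so that for 9 of them the assignment is the authors' nearest-gene label. Calls made up 4.68% of the receptor peaks beyond 50 kb (8 of 171) against 4.27% of all such peaks, 1.92% at 3 to 50 kb (2 of 104) against 2.40%, and 2.33% within 3 kb (1 of 43) against 1.57%.

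**Figure D2:**
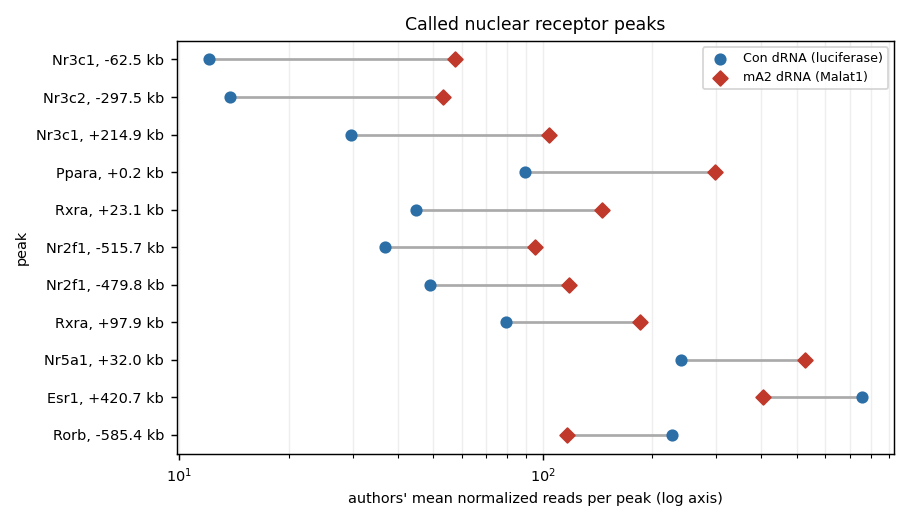
Authors' mean normalized reads (log axis) in Con dRNA (circles) and mA2 dRNA (diamonds) for the 11 called receptor peaks, each labelled with its gene and distance from the start site. The Ppara peak goes from 89.2 to 298 reads, and the Esr1 and Rorb peaks are the only ones whose mA2 dRNA mean is the lower.

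The steroid receptors bind oestrogens, progesterone, glucocorticoids and mineralocorticoids. They had 63 peaks, with a median difference of -0.01. Of these, 49 (77.8%) lay beyond 50 kb, a distance at which 4.27% of all peaks were called. Of the 63, 3 were called higher and 1 lower (6.35%, against 2.73% of all peaks at any distance). The lower one was the most significant receptor peak of all. Assigned to Esr1, the gene of oestrogen receptor alpha, it lay at chr10:5032285-5032685, 421 kb from the start site, beyond the end of Esr1 and inside an intron of Syne1, which encodes a nuclear envelope protein. It had 403 reads in mA2 dRNA and 755 in Con dRNA, and fell 1.87-fold (difference -0.91 ± 0.14, adjusted p = 5.41e-07 in the authors' deposited table). This was the largest mean of any Esr1 peak. The other 11 Esr1 peaks had between 8.86 and 77.3 reads, none was called, and 9 of these had the lower mean in mA2 dRNA. The Esr1 promoter peak had 40.8 against 55.5 reads. Within 100 kb of the called peak lay 6 other peaks, none called, with a median difference of -0.62, and the median over its 10 Mb window was -0.32, against 0.04 for chromosome 10.

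Esr2, the gene of oestrogen receptor beta, had 8 peaks and none called. Its smallest p belonged to a peak 91.8 kb away with 115 against 63.2 reads (adjusted p = 0.291 in the authors' deposited table). Pgr, the progesterone receptor gene, had 6 peaks, all at least 64.8 kb from the start site, of which 5 had the higher mean in mA2 dRNA and none was called. Of the 6, 4 lay inside the neighbouring gene Arhgap42, among them one with 35.8 against 13.1 reads (difference 1.45 ± 0.57, adjusted p = 0.186 in the authors' deposited table). No Pgr peak lay within 3 kb of its start.

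Nr3c1, the glucocorticoid receptor gene, carried 35 peaks, the most of any receptor. They lay 27.6 to 289 kb from the start site used by the authors, and none within 3 kb of it. With no promoter window for Nr3c1, whether a peak covers another start of the gene was not tested. Of the 35 peaks, 18 had the higher mean in mA2 dRNA, the median difference was 0.00, and 2 were called higher. One, at chr18:39304134-39304534, 215 kb from the start inside an intron of the neighbour Arhgap26, had 104 against 29.8 reads, 3.50-fold higher (1.81 ± 0.46, adjusted p = 0.00688 in the authors' deposited table). The other, at chr18:39581968-39582368 in intergenic DNA 62.5 kb upstream, had 57.4 against 12.1 reads, the largest fold of any called receptor peak at 4.74 (2.24 ± 0.62, adjusted p = 0.0171 in the authors' deposited table). Another Nr3c1 peak lay just outside the threshold with the lower mean in mA2 dRNA. It stood 98.0 kb upstream with 106 against 208 reads (-0.97 ± 0.31, adjusted p = 0.0537 in the authors' deposited table), and was called lower, at 0.0295, after the median of all peaks was subtracted. A peak 39.0 kb upstream with 243 against 83.5 reads had a wide implied error (1.54 ± 1.44, adjusted p = 0.850 in the authors' deposited table). The Nr3c1 peaks of high fold thus included called and uncalled ones.

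Nr3c2, the mineralocorticoid receptor gene, had only 2 peaks. The distal one, 297 kb upstream at chr8:76601586-76601986 with no other peak within 100 kb, rose 3.86-fold, from 13.8 to 53.2 reads (1.95 ± 0.60, adjusted p = 0.0423 in the authors' deposited table). That call ended under each of the 4 centrings tried. Its promoter peak had 153 against 109 reads and was not called (adjusted p = 0.620 in the authors' deposited table).

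The oestrogen-related receptors, orphan regulators of energy metabolism, had 10 peaks and no call, none at an unadjusted p under 0.05 either, with a median difference of -0.38. Esrra had a single peak, at its promoter, and it had the most reads of the 31 start-site peaks, with 1644 against 1563 reads, above 99.7% of promoter peaks. The 6 peaks of Esrrb, a gene known from pluripotent cells, lay 34.2 to 72.2 kb from the start and all had the lower mean in mA2 dRNA, with differences from -0.73 to -0.20. Esrrg had 3 weak peaks, of at most 58.1 reads, and 1 of the 3 had the higher mean.

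Retinoid receptors bind retinoic acid, and the RXRs among them serve as partners of many other receptors. Their 52 peaks held 2 calls (3.85%, against 2.73% of all peaks), both higher and both at Rxra, with a median difference of 0.11. The Rxra peak at chr2:27774377-27774777, 97.9 kb downstream of the start and past the end of the gene, rose from 79.3 to 186 reads, 2.34-fold (1.23 ± 0.36, adjusted p = 0.0290 in the authors' deposited table). A second, in an Rxra intron at chr2:27699539-27699939, 23.1 kb from the start, rose from 44.9 to 146 reads, 3.24-fold (1.70 ± 0.53, adjusted p = 0.0462 in the authors' deposited table), the called receptor peak nearest to the threshold. Both calls ended under each of the 4 centrings. The median difference of the 19 Rxra peaks was 0.22, beside 0.14 over chromosome 2 and 0.15 over their 10 Mb window. Of the 19, 15 had the higher mean in mA2 dRNA, as had 60.8% of all peaks. An unadjusted p under 0.05 was found for 6, all higher, and for 11.7% of all peaks. The Rxra promoter peak, with 258 against 217 reads, was not among these 6. A pair of uncalled Rxra peaks at 4.20 kb upstream (335 against 225 reads) and 95.5 kb downstream (219.9 against 147 reads) had differences of 0.58 each.

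At Rarb, the retinoic acid receptor beta gene, 8 of 15 peaks had the lower mean in mA2 dRNA and none was called. Its promoter peak had 101 against 180.4 reads (-0.84 ± 0.37, adjusted p = 0.280 in the authors' deposited table), with an unadjusted p of 0.0226. A Rarb peak 82.6 kb upstream had 223 against 386 reads (adjusted p = 0.142 in the authors' deposited table). Rara had 11 peaks, 6 with the higher mean, and its smallest p was at 279.8 against 383 reads, 20.1 kb from the start (adjusted p = 0.398 in the authors' deposited table). Rarg, with 4 peaks, had a promoter peak of 292 against 268 reads. Rxrb was assigned 1 peak, of 119 against 137 reads, and Rxrg had 2, of at most 48.5 reads. Retinoid receptor genes other than Rxra thus had no called peak.

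The thyroid hormone and vitamin D receptors had 33 peaks and no call. At an unadjusted p under 0.05 there were 3 (9.09%, against 11.7% of all peaks), and the median difference was -0.05. At Thra, 5 of 6 peaks had the higher mean in mA2 dRNA, among them an intronic peak 6.71 kb from the start with 137 against 78.5 reads (0.80 ± 0.33, adjusted p = 0.226 in the authors' deposited table), while its strongest peak had 684 against 840.1 reads. At Thrb, 17 of 22 peaks had the lower mean, with a median difference of -0.23, and its promoter peak had 291 against 299 reads. The lowest Thrb differences, -1.19 and -1.10, belonged to adjacent peaks 263 and 262 kb upstream with 12.8 against 29.1 and 16.4 against 35.2 reads. Vdr, the vitamin D receptor gene, had 5 peaks, 4 with the higher mean, and its nearest peak lay 3.05 kb from the start with 267 against 228 reads.

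**Figure D3:**
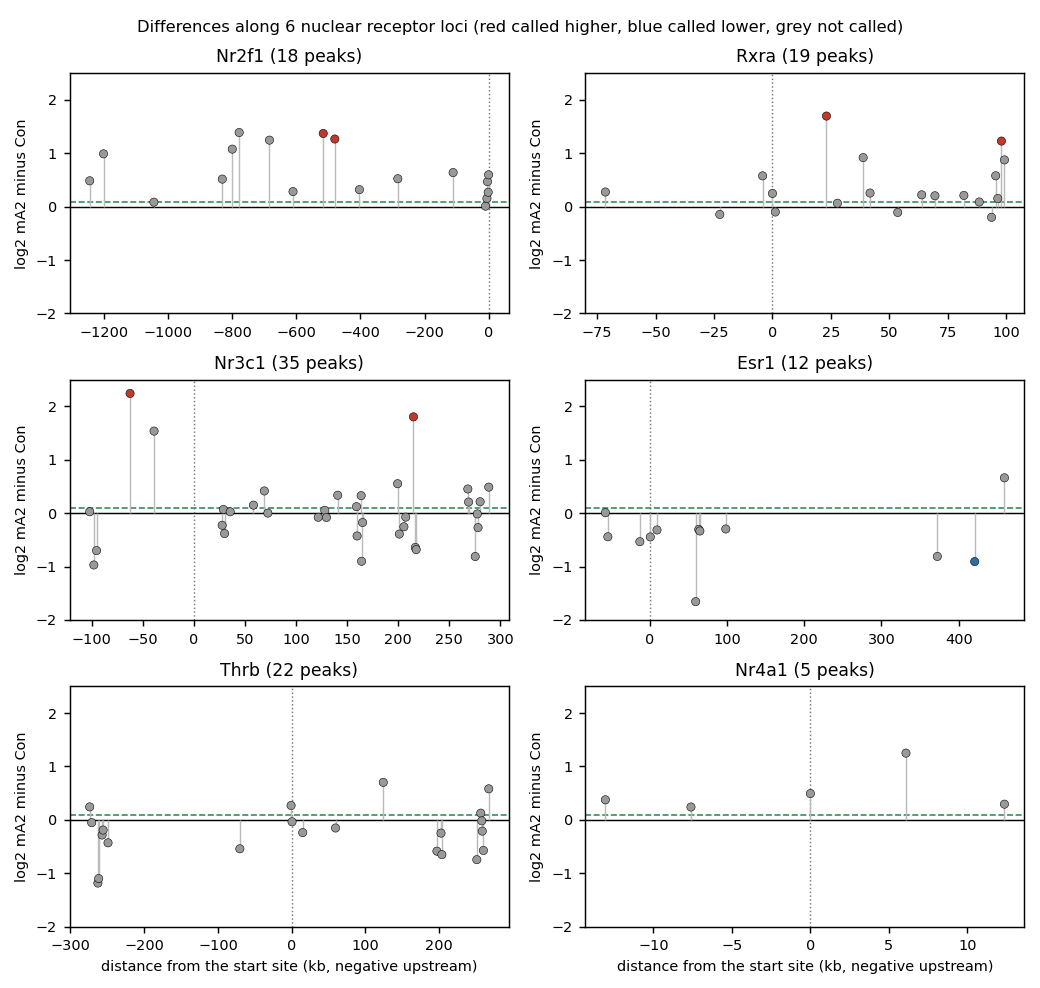
Difference (log2 mA2 dRNA minus Con dRNA, y axis) of each peak against its distance from the assigned start site (kb, x axis) for Nr2f1, Rxra, Nr3c1, Esr1, Thrb and Nr4a1, with called peaks in red (higher) or blue (lower), a solid line at 0 and a dashed line at the median of all peaks, 0.09. All 18 Nr2f1 peaks lie above 0, while 10 of 12 Esr1 peaks and 17 of 22 Thrb peaks lie below it.

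The PPARs sense fatty acids and their derivatives. Of 21 PPAR peaks 1 was called (4.76%, against 2.73% of all peaks), and the median difference was 0.15. Ppara, a driver of fatty acid oxidation, had a single peak, in its promoter 0.193 kb from the start used by the authors, at chr15:85735175-85735575. It rose 3.34-fold, from 89.2 to 298 reads (1.74 ± 0.29, adjusted p = 4.0e-06 in the authors' deposited table), the only called receptor peak within 3 kb of a start. The 50 bases shared with the printed window hold 1 GC box. Within 100 kb of it lay 23 other peaks, 2 of them called higher, with a median difference of 0.23, and the median of its 10 Mb window was 0.20. The Ppara call held under each of the 4 centrings.

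The start-site peaks of the other PPAR genes were not called. Ppard, which is expressed in many tissues, had 540.2 against 529.6 reads at its promoter peak. A Ppard peak 8.23 kb upstream, inside the neighbour Def6, had 1009 against 847 reads (adjusted p = 0.302 in the authors' deposited table). Pparg, the adipocyte regulator, had 290.3 against 247 reads at its promoter peak. Of its 16 peaks 10 had the higher mean in mA2 dRNA. The largest difference was in an intron at chr6:115382802-115383202, 21.9 kb from the start, with 108 against 45.6 reads, 2.37-fold, above the threshold (1.25 ± 0.42, adjusted p = 0.0850 in the authors' deposited table).

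The sterol, bile acid and xenobiotic sensors had 13 peaks in 4 of 5 genes, no call, 1 at an unadjusted p under 0.05 and a median difference of 0.00. The liver X receptor genes had start-site peaks of 259.9 against 262 reads (Nr1h2) and 488 against 469.6 reads (Nr1h3). Nr1h4, the bile acid receptor gene, had 130.2 against 130.2 reads at its start. Nr1i2, which encodes the xenobiotic sensor PXR, had the fewest reads of the 31 start-site peaks, with 31.9 against 27.0 reads, and a peak 48.5 kb away with 84.1 against 43.0 reads (adjusted p = 0.287 in the authors' deposited table).

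The clock receptors REV-ERB and ROR repress and activate the core clock gene Bmal1. They had 20 peaks in 3 of 4 genes and 1 call (5%, against 2.73% of all peaks), with a median difference of -0.05. Nr1d1 and Nr1d2, the REV-ERB genes, had strong promoter peaks, with 1259.8 against 1192 reads and 932 against 965 reads. The called peak was assigned to Rorb, which is known from retina and brain. It lay 585 kb upstream in intergenic DNA, at chr19:19696642-19697042, and fell 1.95-fold, from 228 to 117 reads (-0.97 ± 0.27, adjusted p = 0.0185 in the authors' deposited table). The 3 other peaks within 100 kb of it were not called and had a median difference of 0.49. The Rorb promoter peak had 485 against 473 reads.

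The NR4A receptors are immediate-early genes induced by many stimuli. Their 14 peaks held no call, with a median difference of 0.18, and 7 had an unadjusted p under 0.05 (50%, against 11.7% of all peaks). Of the 7, 5 were all the peaks of Nr4a1, each with the higher mean in mA2 dRNA, and the other 2 were at Nr4a3, both with the lower. Upstream of Nr4a1, the means were 746 against 575 reads at 13.1 kb and 1466 against 1242 reads at 7.61 kb. Its promoter peak had 445 against 316 reads (0.49 ± 0.22). Within the gene, the intronic peak 6.08 kb from the start had 74.1 against 31.2 reads (1.25 ± 0.45, adjusted p = 0.114 in the authors' deposited table), and the peak over the printed promoter window had 1015 against 829 reads. No Nr4a1 peak passed the threshold on its own. The differences of the 5 Nr4a1 peaks ranged from 0.24 to 1.25, beside a median of 0.21 over chromosome 15 and 0.15 over their 10 Mb window. Centred by chromosome, the difference of the Nr4a1 promoter peak was 0.29.

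Nr4a2 had 5 peaks, all with the higher mean in mA2 dRNA but with differences of only 0.08 to 0.29, beside a median of 0.14 over chromosome 2. The peak over the printed Nr4a2 promoter had 378 against 358 reads, and its difference of 0.08 turned to -0.01, -0.06 and -0.09 when centred on the median of all peaks, by chromosome and by 10 Mb window. Nr4a3 had the lower mean in all 4 peaks. Its promoter peak had 503 against 549 reads and the peak 1.49 kb upstream 596 against 628 reads, both differences under their implied errors. Its peaks 108 kb and 65.3 kb upstream had 84.1 against 142 reads and 24.3 against 51.8 reads (the authors' deposited table gave an adjusted p of 0.296 and 0.290).

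The NR2 orphan receptors had 71 peaks, 2 called higher and none lower (2.82%, against 2.73% of all peaks), with a median difference of 0.08. Both calls were at Nr2f1, which encodes COUP-TFI, a regulator of neural development. Its 18 peaks all had the higher mean in mA2 dRNA, with differences from 0.01 to 1.39 and a median of 0.52, and 5 had an unadjusted p under 0.05. The called peaks lay in intergenic DNA 480 and 516 kb upstream. The nearer, at chr13:78679515-78679915, rose 2.41-fold, from 49.0 to 118 reads (1.27 ± 0.37, adjusted p = 0.0305 in the authors' deposited table). The farther, at chr13:78715476-78715876, rose 2.59-fold, from 36.9 to 95.5 reads (1.37 ± 0.41, adjusted p = 0.0381 in the authors' deposited table). Both calls ended under each of the 4 centrings, and the median difference was 0.32 over their 10 Mb window and 0.23 over chromosome 13. The peak nearest the Nr2f1 start, 0.563 kb upstream, had 239 against 158 reads (0.60 ± 0.28, adjusted p = 0.352 in the authors' deposited table). The Nr2f1 peak with the largest difference, 1.39, lay 778 kb upstream with 57.7 against 22.0 reads (adjusted p = 0.879 in the authors' deposited table).

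Nr2f2, the COUP-TFII gene, is the paralogue of Nr2f1. Of its 23 peaks, all at 43.6 to 737 kb, 13 had the higher mean in mA2 dRNA, the median difference was 0.09, and none was called. Nr2f6 had 2 promoter peaks, both with the higher mean, of which one had 138 against 87.5 reads (0.65 ± 0.32, adjusted p = 0.394 in the authors' deposited table). The testicular receptor genes Nr2c1 and Nr2c2 had start-site peaks of 209 against 217 reads and 154 against 138 reads, and a Nr2c2 peak 0.702 kb from the start, over its RefSeq promoter window, had 1025 against 949 reads. Nr2e3, a photoreceptor gene, was assigned 16 peaks, of which 14 lay inside the neighbour Thsd4 and 5 had the higher mean. Nr2e1, a neural stem cell gene, had a single peak of 15.8 against 20.1 reads. No peak of Nr2f2, Nr2f6, Nr2c1, Nr2c2, Nr2e3 or Nr2e1 was called.

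The NR5, NR6 and NR0 receptors had 21 peaks and 1 call (4.76%, against 2.73% of all peaks), with a median difference of 0.00. Nr5a1, which encodes the steroidogenic factor SF-1, was assigned the called peak, at chr2:38682180-38682580, 32.0 kb from the start in an exon of the pseudogene Adgrd2-ps. It rose 2.20-fold, from 239.8 to 528 reads (1.14 ± 0.26, adjusted p = 0.00186 in the authors' deposited table), and held under each of the 4 centrings. None of the 20 other peaks within 100 kb was called, and their median difference was 0.01. The other 7 Nr5a1 peaks had between 16.1 and 376 reads, and 4 of these had the higher mean. Nr5a2, known from liver and pancreas, had 11 peaks and none called, the largest difference being at 40.5 against 14.5 reads, 19.8 kb upstream (1.48 ± 0.58, adjusted p = 0.183 in the authors' deposited table). Nr6a1 had 1 peak of 589.9 against 524 reads, and Nr0b2, the corepressor SHP, 1 peak of 20.2 against 20.7 reads.

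**Figure D4:**
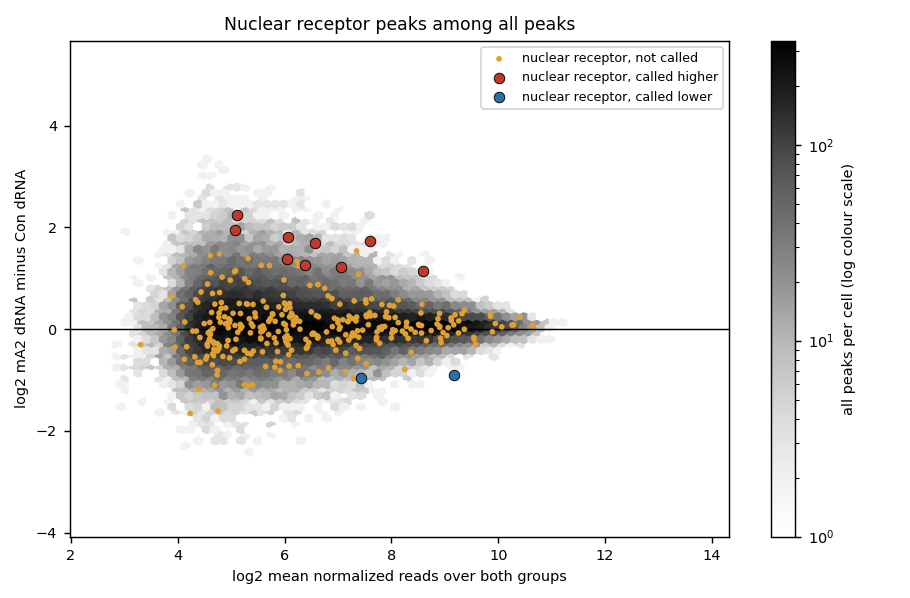
Difference (log2 mA2 dRNA minus Con dRNA, y axis) against log2 mean reads over both groups (x axis) for all 80881 peaks (grey, darker where more peaks fall) and the receptor peaks (orange, or red and blue where called). The 318 receptor peaks spread over the same range of signal as the table, with the 9 called higher above its bulk and the 2 called lower below it.

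A peak within 3 kb was found for 31 genes, 10 genes had only farther peaks and 2 had none. Taking the nearest one per gene by the deposited distance, 22 of 31 differed by under 1.2-fold, the median difference was 0.06 against 0.07 for the 13620 promoter peaks of the table, and 19 had the higher mean in mA2 dRNA. One was called (Ppara), and Nr4a1, Rarb and Nr2f1 also had an unadjusted p under 0.05. By signal, 12 of the 31 lay above the median promoter peak of 272 reads. Those of Esrra, Nr1d1 and Nr1d2 lay above 99.7%, 98.2% and 94.6% of promoter peaks. At the other end, the start-site peaks of Nr1i2 and Esr1 had at most 55.5 reads. The deposited distances do not cover every start in RefSeq. The nearest Rara peak was an intergenic one with at most 55.9 reads, 2.07 kb away, while a peak 9.58 kb downstream held all 250 bases of a pair of RefSeq promoter windows of Rara and had 648 against 579 reads. Similarly, the promoter window of Rxrb lay wholly inside a peak of 622 against 639 reads that is assigned to Slc39a7, and 234 bases of an Nr3c2 window lay inside a peak of 644 against 542 reads assigned to Gm10649. An Rarb window lay inside a peak of 80.4 against 69.9 reads assigned to Top2b. These starts were thus open under another distance or gene name. Signal at a start site does not measure the RNA of the gene.

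**Figure D5:**
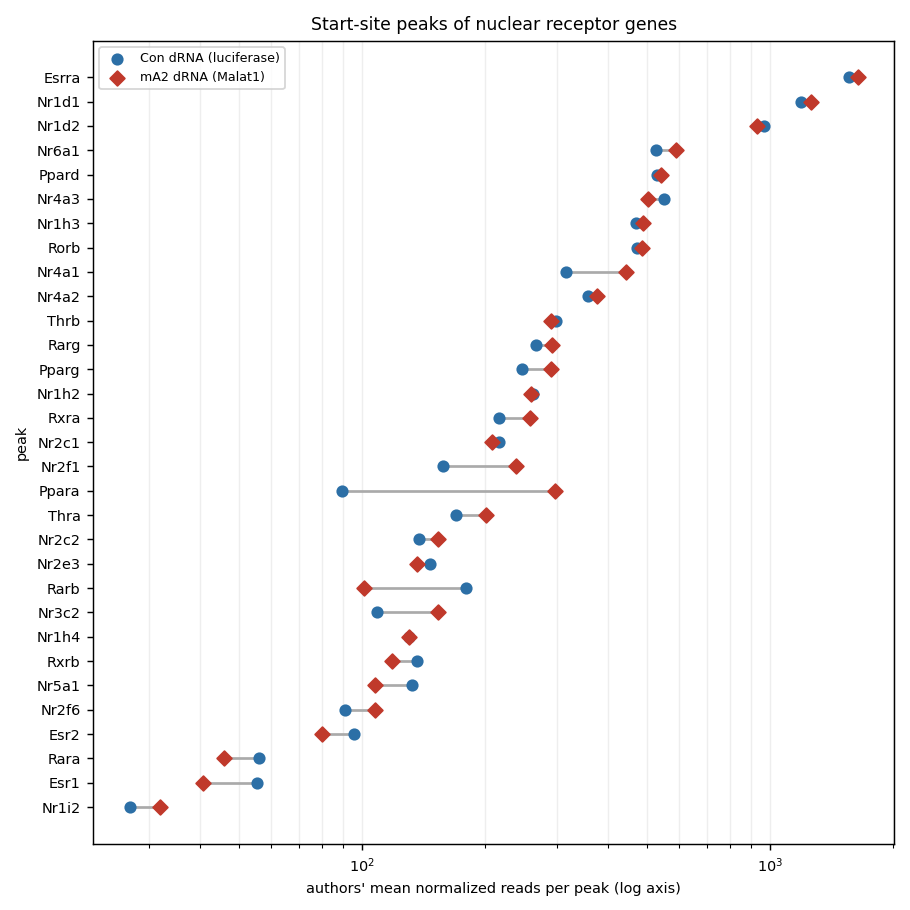
Authors' mean normalized reads (log axis) of the start-site peak of 31 receptor genes in Con dRNA (circles) and mA2 dRNA (diamonds), ordered by mean signal from Esrra at the top (1644 against 1563 reads) to Nr1i2 (31.9 against 27.0 reads). The points of Ppara lie far apart, those of Rarb, Nr2f1 and Nr4a1 less so, and 22 of the 31 pairs differ by under 1.2-fold.

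Genes that act with the receptors were counted in 6 lists. Together 605 peaks of 86 of 90 genes held 8 called higher and 3 called lower (1.82%, against 2.73% of all peaks). Coactivators, which include the histone acetyltransferases Crebbp and Ep300, had no call among 74 peaks, with 3 at an unadjusted p under 0.05 and a median difference of 0.02. Corepressors had 1 call, higher, among 104 peaks (0.962%). It was assigned to Tbl1xr1, a subunit of the NCoR complex, 171 kb away, with 136 against 55.6 reads, 2.45-fold (adjusted p = 0.0379 in the authors' deposited table). Genes of ligand supply and breakdown had 4 called higher and 2 lower (3.82%) among 157 peaks of 25 of 27 genes. A peak assigned to Dio2, which activates thyroid hormone, rose 3.23-fold, from 56.1 to 181 reads, but lay 926 kb away (adjusted p = 2.26e-04 in the authors' deposited table). Peaks of the retinoid enzyme genes Rdh10, 74.2 kb away, and Dhrs3, 88.2 kb away, rose from 61.8 to 177 reads and from 16.7 to 67.2 reads (the authors' deposited table gave an adjusted p of 0.00392 and 0.0119). The remaining call higher was at the promoter of Aldh1a3, which makes retinoic acid, with 222 against 112 reads (adjusted p = 0.0163 in the authors' deposited table). The 2 calls lower were at Cyp26b1, which breaks down retinoic acid, where reads fell from 683 to 393 at 58.5 kb, and at Rdh10 itself, where they fell from 492 to 312 in an intron 3.45 kb from the start (the authors' deposited table gave an adjusted p of 0.0197 and 0.0465).

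Among known glucocorticoid targets 2 of 117 peaks were called, both higher (1.71%, against 2.73% of all peaks). One was assigned to the phosphatase gene Dusp1, with 255 against 103 reads (2.48-fold, adjusted p = 0.00436 in the authors' deposited table). It lay 22.4 kb upstream of the Dusp1 start and was annotated as intronic. The other was assigned to Fkbp5, a chaperone that restrains the receptor, with 229 against 122 reads (1.88-fold, adjusted p = 0.0304 in the authors' deposited table), 53.4 kb from the start. Among lipid sensor targets 1 of 91 was called (1.1%). It lay 2.10 kb from the start of Lpl, the lipoprotein lipase gene, and fell 3.49-fold, from 53.4 to 15.3 reads (adjusted p = 0.0234 in the authors' deposited table). Clock genes had 1 call among 62 peaks (1.61%). It was at Bhlhe41, 1.55 kb from the start, where reads rose 2.01-fold, from 123 to 247 (adjusted p = 0.00956 in the authors' deposited table). The median differences were 0.07 for corepressors, 0.10 for ligand supply, 0.15 for glucocorticoid targets, 0.04 for lipid sensor targets and 0.13 for clock genes, beside 0.09 for all peaks.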

How the data were processed

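ATAC-seq libraries of KPC cells were compared between mA2 dRNA and Con dRNA, with 2 libraries in each group. Per the submitters' processing notes, the build was mm10, and the software was FastQC and Picard, Bowtie2, MACS2 and deepTools, DiffBind and ChIPseeker, without versions. What each did, read filters, any correction of read positions for the transposase, the normalization, and pooled or separate peak calling are not given in the sources used. For each peak, the authors' deposited table gives, per the file headers, log2 mean normalized reads per peak for each group, a log2 fold, a p-value and an adjusted p-value, with a gene symbol, an annotation class and a distance from the start site. Its headers name the groups dmA12 and dLuc, which were taken as mA2 dRNA and Con dRNA. The 4 columns of single libraries have names that match no sample label and were not used, so depth and replicate spread per library are not given.

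Reads are 2 raised to the deposited log2 mean, and differences and folds are computed from these means and not from the deposited log2 fold, which was smaller (median ratio 0.77 for called and 0.10 for other peaks). The group means summed to 13278580 reads in mA2 dRNA and 12465466 in Con dRNA, a ratio of 1.07. The deposited adjusted p-value equals a Benjamini-Hochberg adjustment over all 80881 peaks to within 7.40e-06. The implied standard error is the difference divided by the normal deviate of the deposited p-value. Where that deviate was under 1, for 202 of the 318 receptor peaks, it was smoothed over peaks of like signal. The 4 centrings of the differences (median of all peaks, running median of 2001 peaks along the signal, chromosome, 10 Mb window) were tried, with p recomputed from this error. Only the first was run on simulated data, with normal noise of these same errors and a uniform shift. That setting is simpler than the deposited test on 2 libraries a group, so it does not check the recomputed calls. Peaks are 401 bp wide in 316 of the 318 cases.

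Named peaks were every called receptor peak, each gene's peak with the smallest p, each gene's nearest peak within 3 kb, and up to 3 called genes of each companion list. Any receptor peak that gained a call under a centring was added to these. Other peaks named, among them the further calls of the companion lists and Cdh5, were picked after their values were seen. The receptor genes and the companion and marker lists were chosen with earlier results of these data known. Promoter sequences and gene bounds are from RefSeq (GRCm38.p6, whose chromosome coordinates are those of mm10), and all 43 genes matched the gene table. Python 3.11.15, pandas 2.3.3, numpy 2.4.6, scipy 1.17.1 and matplotlib 3.10.9 were used.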

Additional observations from a re-analysis of the deposited data

How the results depend on the processing

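No paired analysis was possible because the columns of single libraries carry names that match no sample label. For the same reason the fit without each library and the comparison of TMM with size factors were not run. With differences centred on the median of all peaks, the 11 calls became 7 (2.2% against 2.37% of all peaks). Centred along the signal there were 7 (2.2% against 2.31%), by chromosome 6 (1.89% against 2.06%) and by 10 Mb window 6 (1.89% against 1.88%). The calls were 4 (1.26% against 1.28%) at an adjusted p under 0.01. Within 50 kb of a start there were 3 (2.04% against 2.14%), and within 3 kb 1 (2.33% against 1.57%). At 0.10 there were 13 (4.09% against 4.02%), by gene 8 of 41 (19.5% against 8.58%), and other filters gave 10 or 11, and leaving out any 1 of the 8 called genes, chosen after the data were seen, gave 9 or 10. Of the 11 called peaks 6 kept their call under each centring (6, 6, 6 and 6). The 5 lost, both of Nr2f1, both of Rxra and that of Nr3c2, had adjusted p of 0.0591 to 0.225 there. Of 60 named peaks without a call, 4 to 9 changed sign, and 1, at Nr3c1, gained a call under the first 2 centrings. That Nr3c1 peak was in the set only because it gained a call, so the gain was fixed by the selection. The median difference of 0.0422 turned to -0.0495, -0.0568, -0.0561 and -0.0478 under the 4 centrings, while it was 0.0706 within 50 kb, 0.0729 within 3 kb and 0.0045 by the deposited log2 fold. The 11 calls among the 605 peaks of the companion lists became 7 by 10 Mb window, 4 at 0.01 and 20 at 0.10. Over all peaks the shares called at these 3 settings were 1.88%, 1.28% and 4.02%. The cause of these changes was not tested, beyond the smaller number of peaks within 50 and 3 kb. No depth per library was used, so what depth limits is unknown, and the implied errors cover 2 libraries a group.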
